A study of Mus musculus with 20 samples.

Results

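Immediate early and activity-induced genes were followed across the hippocampus of Fmr1 mutant and control mice of both sexes. Members were taken by symbol from a list of 39 genes. Of these, 38 are among the 13256 genes in the deposited tables, and all 38 passed the filter on low values that left 13174 genes for testing. The levels of the remaining gene, Atf3, an ATF/CREB-family transcription factor, are not analysed here. By role, the 38 genes fall into 17 early transcription factors, 13 early regulators (phosphatases, kinases and other proteins that tune signalling or growth) and 8 later effectors that act outside the nucleus, at the synapse or after secretion. The study sequenced 20 hippocampal RNA libraries in 4 groups of 5: WT females, KO females, WT males and KO males. WT are C57 mice, and KO are mice mutant for Fmr1, the gene of the RNA-binding protein FMRP whose loss causes fragile X syndrome. The titles call the mutants KO while the genotype field calls them a knockdown. Every title also holds the label Con before the library number, and what it stands for is not stated. No treatment, stimulation, age or allele is given for any group, and animals had food and water freely on a 12-hour light cycle. Nothing says whether the 5 libraries of a group came from separate animals. P-values therefore measure only the spread between these libraries, which may be technical.

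Immediate early genes are transcribed within minutes of synaptic activity, from factors already present in the neuron: calcium entry and kinase cascades act on CREB, bound at cAMP response elements, and on serum response factor, bound at CArG boxes. The first wave encodes transcription factors of the AP-1, EGR and NR4A families, together with phosphatases that limit the same kinases. Effectors such as Bdnf, Arc and Ptgs2 act at synapses rather than on transcription. They are called later effectors here by role, and no time of induction was measured. In the hippocampus the whole programme is used as a marker of recently active neurons and is tied to memory.

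The promoters show how the members differ in these elements, and those of the genes on which the results below turn are printed here. Sequences are RefSeq's, build GRCm38.p6, and cover the 250 bases before an annotated start, 5′ to 3′. A promoter was found for 29 of the 39 listed genes. Capitals mark matches to the CRE core TGACG, to the same core read on the opposite strand as CGTCA, or to the CArG box on either strand. The full palindrome TGACGTCA contains the core, and its promoters count for both. Fos (chr12:85473640-85473889) is shown as the textbook member, Nr4a1 (chr15:101266596-101266845) for its 4 cores, and Dusp5 (chr19:53528895-53529108) for both kinds of match; its last 36 bases, which lie in an annotated first exon, are left off. Bdnf (chr2:109692186-109692435) is given at the only start of its 7 with a match, Plk2 (chr13:110394794-110395043) for a full palindrome, and Ptgs2 (chr1:150099781-150100030) as a promoter with no match. All 6 are on the plus strand. The window of Fosl2 also holds no match; in GENCODE M21 it lies within an exon of that gene, and it is not printed. The window of Jund, also without a match, ends at base 70697738 of chromosome 8, before the deposited gene start of 70698949.
Fos: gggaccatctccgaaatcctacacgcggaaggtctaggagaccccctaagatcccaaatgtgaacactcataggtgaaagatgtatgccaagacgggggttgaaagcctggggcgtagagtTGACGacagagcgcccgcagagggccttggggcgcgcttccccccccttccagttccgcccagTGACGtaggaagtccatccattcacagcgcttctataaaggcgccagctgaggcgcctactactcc
Nr4a1: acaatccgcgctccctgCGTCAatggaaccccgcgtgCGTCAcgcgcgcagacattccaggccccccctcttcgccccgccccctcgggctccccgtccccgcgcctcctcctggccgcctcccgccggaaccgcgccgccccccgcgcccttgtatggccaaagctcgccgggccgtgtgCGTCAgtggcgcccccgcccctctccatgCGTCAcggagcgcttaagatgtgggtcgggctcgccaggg
Dusp5: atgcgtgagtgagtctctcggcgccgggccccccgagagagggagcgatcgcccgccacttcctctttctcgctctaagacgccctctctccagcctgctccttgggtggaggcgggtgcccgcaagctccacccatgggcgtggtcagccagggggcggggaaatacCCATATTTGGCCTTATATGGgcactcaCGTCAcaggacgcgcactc
Bdnf: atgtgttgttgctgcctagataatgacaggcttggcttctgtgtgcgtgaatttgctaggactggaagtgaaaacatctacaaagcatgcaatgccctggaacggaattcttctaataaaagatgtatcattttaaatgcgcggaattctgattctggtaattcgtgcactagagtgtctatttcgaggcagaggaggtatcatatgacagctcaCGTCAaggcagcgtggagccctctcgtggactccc
Plk2: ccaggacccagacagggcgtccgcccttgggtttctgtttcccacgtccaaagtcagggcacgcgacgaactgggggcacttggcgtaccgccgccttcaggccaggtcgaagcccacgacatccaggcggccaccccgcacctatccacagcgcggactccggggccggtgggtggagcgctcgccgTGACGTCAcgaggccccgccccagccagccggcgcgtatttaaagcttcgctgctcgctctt
Ptgs2: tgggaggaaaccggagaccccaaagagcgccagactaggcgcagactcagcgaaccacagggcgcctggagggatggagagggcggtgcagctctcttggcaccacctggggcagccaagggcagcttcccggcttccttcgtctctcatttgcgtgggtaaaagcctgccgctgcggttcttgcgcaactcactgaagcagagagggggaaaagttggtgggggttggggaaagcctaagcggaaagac

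In Dusp5 the adjoining pair of CArG boxes begins 82 bases before the RefSeq start and the CRE core 55 bases before it; that start lies 36 bases past the end of the printed sequence. The core was present in 18 of the 29 genes with a promoter (62.1%), against 19.8% of the 27025 genes with a promoter of the same length. For every motif a gene counted if any of its annotated starts had a match. Genes with several starts, such as Bdnf and Egr2, therefore had more chances to match. Among the early transcription factors it was present in 11 of 15, in Fos, Fosb, Junb, Egr2, Egr4, Npas4, the 3 Nr4a genes, Klf4 and Atf3. The full palindrome was found in 5 of 29 (17.2%, against 1.77% of all genes), namely Arl4d, Btg2, Dusp1, Plk2 and Scg2, none of them a transcription factor. The CArG box was found in 2 of 29 (6.9%, against 1.62%), Egr2 and Dusp5. These are matches of letters in windows of 250 bases, not measured binding sites, and elements outside the windows were not searched.

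Fmr1 itself averaged 10.6 ± 0.558 FPKM in WT females against 3.32 ± 0.327 in KO, and 11.3 ± 0.527 in WT males against 3.56 ± 0.187 in KO (SD, n = 5 each), with no overlap between genotypes in either sex. FPKM divides a gene's fragments by its length and by the size of the library. Total FPKM ran from 230631 to 244976 per library, the read depth is unknown, and log2 values of any pair of libraries correlated at 0.976 to 0.99 across genes. Markers of dentate granule cells summed to 98 to 148 FPKM and CA1 pyramidal markers to 95.4 to 145 in the 20 libraries, so the labelled tissue was represented in each. Some libraries stand apart by genes of tissues other than the hippocampus. Ttr, made by the choroid plexus, was at 878 FPKM in female WT library 4, at 1097 and 1461 in female KO libraries 4 and 5, and at 583 in male KO library 2, against at most 169 elsewhere. Prl, the pituitary hormone prolactin, was at 4.63, 42.2 and 22.1 FPKM in female KO libraries 2, 3 and 4 and at most 1.68 elsewhere. Results that rest on these libraries are given with and without them.

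All members were measurable over a wide range of levels, in libraries for which no stimulus is named. The mean over the 20 libraries was highest for Scg2, a granin of secretory vesicles, at 91.4 FPKM. It was followed by Plk2, a kinase that weakens overactive synapses, at 51.2, the AP-1 subunits Jund at 40.7 and Jun at 31.2, the neuropeptide precursor Vgf at 26.9, and the zinc-finger factor Egr1 at 24.9. Npas4, a transcription factor induced by calcium entry in neurons, averaged 1.57 FPKM, the AP-1 subunit Fosb 0.850 and the zinc-finger factor Egr2 0.439, the lowest of the 38. The class medians of these means were 11.5 FPKM for the early transcription factors, 5.93 for the early regulators and 15.7 for the later effectors. Libraries of 1 group spread more in these genes than in most: the within-group SD of log2(FPKM + 1) was above the median of all tested genes (0.11) for 14 of 17 early transcription factors, 10 of 13 early regulators and 3 of 8 later effectors.

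**Figure D1:**
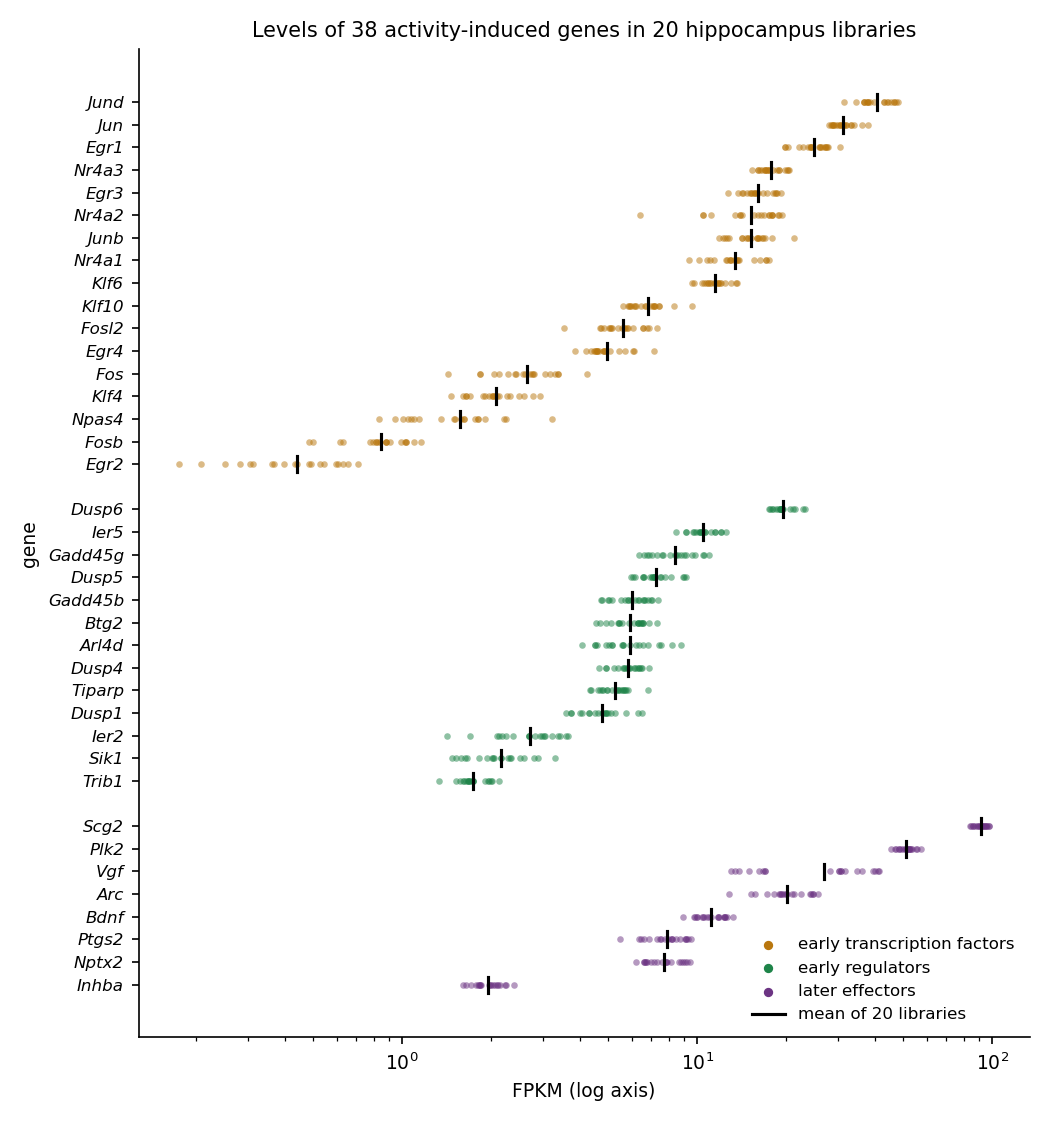
FPKM (log axis) of each of the 38 members in the 20 libraries, ordered by role and level. Points are single libraries coloured by role, and black ticks mark the mean of the 20 libraries. These means run from 0.439 FPKM for Egr2 to 91.4 FPKM for Scg2. Groups are not marked.

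In females, 4 of the 38 members differed between KO and WT (10.5%), against 438 of 13174 tested genes (3.32%). The AP-1 subunit Fosl2 and Dusp5, a nuclear phosphatase that inactivates ERK, rose. Bdnf, the neurotrophin released at active synapses, and Ptgs2, the inducible cyclooxygenase that makes prostaglandins in excitatory neurons, fell. By class, 1 of 17 early transcription factors and 1 of 13 early regulators rose, and 2 of 8 later effectors fell; over all genes 1.8% were called higher and 1.53% lower. The test was limma's on log2(FPKM + 1) with Benjamini-Hochberg adjustment over all tested genes and a threshold of 0.05, and every difference below is on that scale. With the 3 Prl libraries left out, or the 4 Ttr libraries, no member was called in females (8 and 76 of all genes were), while the 4 differences kept their signs. Without the Prl libraries female KO keeps only libraries 1 and 5, and library 5 has the highest Ttr. Without the Ttr libraries it keeps libraries 1, 2 and 3, of which 2 and 3 have high Prl. Neither fit is therefore free of both genes, and what the smaller number of libraries contributed to the lost calls was not tested.

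**Figure D2:**
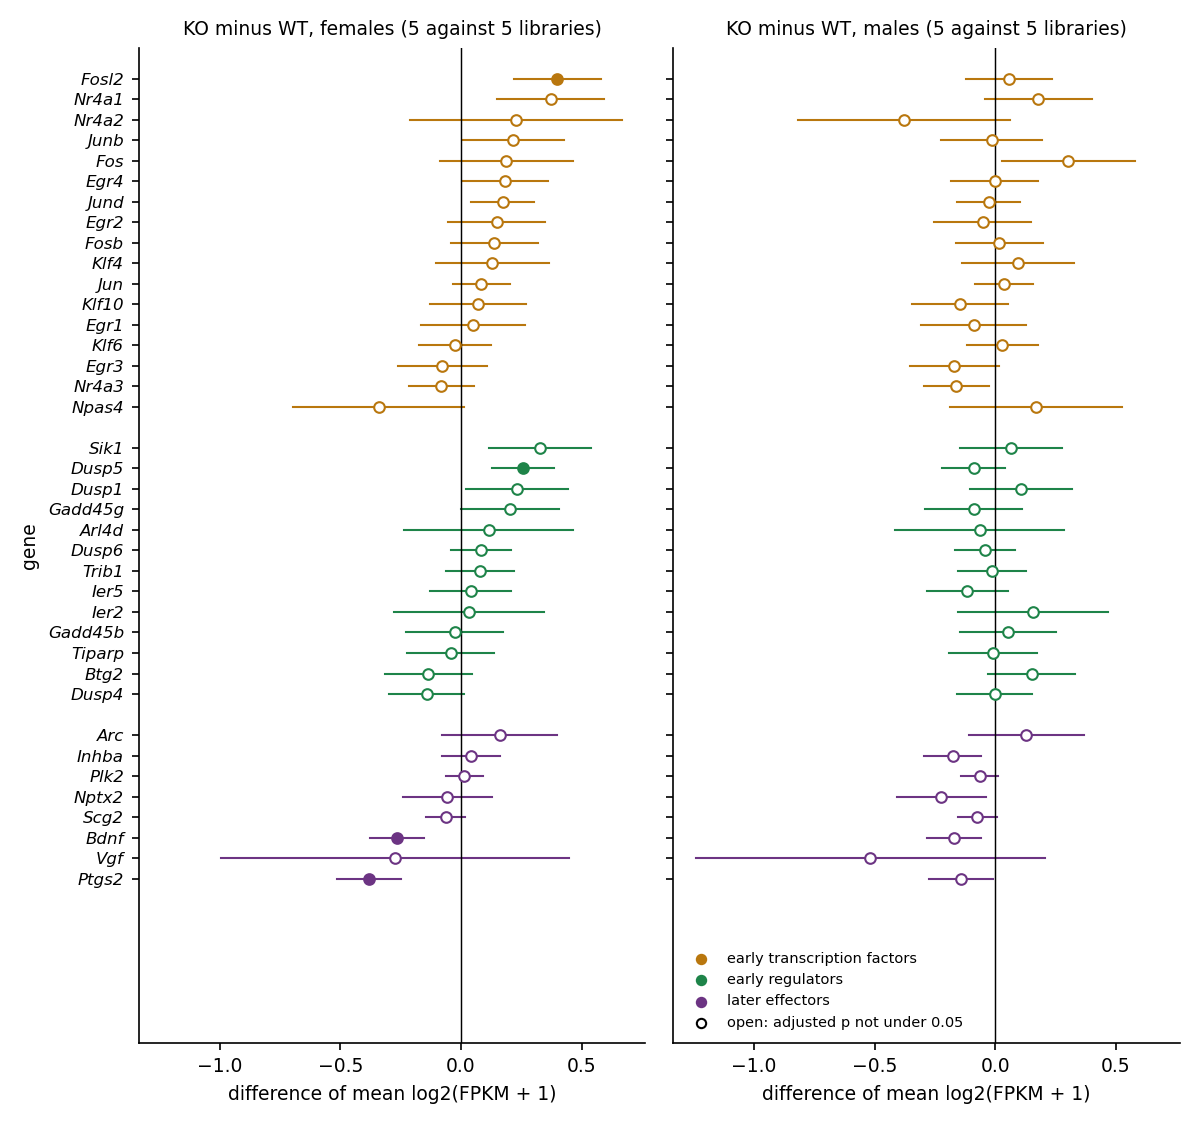
Difference of mean log2(FPKM + 1), KO minus WT, for the 38 members in females (left) and males (right), with 95% confidence intervals, 5 libraries against 5. Colours give the role, and filled points passed the adjusted threshold of 0.05: 4 in females and 0 in males.

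Fosl2 (ENSMUSG00000029135.10 at chromosome 5, 32135801 to 32157842, plus strand, mm10) was at 5.66, 5.04, 5.15, 3.55 and 5.39 FPKM in female WT libraries 1 to 5 and at 6.76, 6.87, 7.31, 6.54 and 6.54 in female KO. Every KO value lay above every WT value, and the KO libraries were close together. Means were 4.96 ± 0.825 and 6.80 ± 0.318 FPKM (SD, n = 5 each), a difference of +0.40 (SE 0.086, adjusted p = 0.0177). Without the Ttr libraries, among them the lowest WT value, the difference was +0.34 (adjusted p = 0.0712), and without the Prl libraries +0.37 (adjusted p = 0.246). Fitted on the female libraries alone, Fosl2 lost its call (adjusted p = 0.0606).

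Nr4a1, an orphan nuclear receptor and a fast marker of activity, was at 12.98, 13.7, 13.5, 10.2 and 10.8 FPKM in female WT and at 17.1, 17.1, 12.6, 16.3 and 17.5 in female KO. The groups overlapped only through KO library 3. The difference of +0.37 (SE 0.11) missed the threshold (adjusted p = 0.0594) and passed it without female KO library 3 (adjusted p = 0.0414), male WT library 2 (0.0425) or male KO library 1 (0.0477). Fos, the founding AP-1 subunit, was at 2.61, 3.16, 2.78, 1.84 and 2.802 FPKM in female WT and at 3.36, 2.44, 2.42, 4.24 and 3.38 in female KO. The ranges overlapped broadly (+0.19, SE 0.13, adjusted p = 0.448), and the difference was −0.04 without the Ttr libraries.

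Egr1, a zinc-finger factor needed for lasting synaptic change, was at 27.3, 27.8, 27.2, 20.3 and 19.9 FPKM in female WT and at 27.5, 26, 22.2, 25.9 and 24.4 in female KO. These values overlapped (+0.05, SE 0.10, adjusted p = 0.834), and the sign of so small a difference turned without WT library 4 (−0.01) or 5 (−0.02). Npas4 was at 1.36, 1.76, 1.91, 2.25 and 2.22 FPKM in female WT and at 1.07, 1.81, 0.944, 1.05 and 1.63 in female KO. It had the lowest difference of the 17 early factors, −0.34 (SE 0.17, adjusted p = 0.275), with overlapping groups. Jund was at 44.5, 43.04, 43.1, 36.7 and 39.8 FPKM in female WT and at 46.4, 46.6, 45.5, 47.8 and 47.3 in female KO. Its groups did not overlap, with KO above WT, yet the difference of +0.17 (SE 0.063) had an adjusted p of 0.137. Groups that did not overlap were found for 4 of 38 members (10.5%: Fosl2 and Jund higher, Bdnf and Ptgs2 lower) and for 5.99% of all genes. The other early factors, Fosb, Jun, Junb, Egr2, Egr3, Egr4, Nr4a2, Nr4a3, Klf4, Klf6 and Klf10, differed by −0.08 to +0.23 with no adjusted p under 0.05. Among them the orphan receptor Nr4a2 was at 6.38 FPKM in female WT library 4 and at 14.01 to 17.5 in the other WT females.

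Dusp5 (ENSMUSG00000034765.6 at chromosome 19, 53529109 to 53542431, plus strand) was at 7.02, 7.81, 7.53, 6.07 and 6.59 FPKM in female WT and at 9.18, 8.14, 8.96, 8.99 and 7.51 in female KO. All but 1 KO value lay above the WT maximum. Means were 7.002 ± 0.702 and 8.55 ± 0.710 FPKM (SD, n = 5 each), a difference of +0.26 (SE 0.062, adjusted p = 0.0311). The call was lost without female WT library 4 (adjusted p = 0.0874) or 5 (0.0771), female KO library 1 (0.0577), 3 (0.0784) or 4 (0.0652), the Ttr libraries (0.0873) or the Prl libraries (0.332), with the GC trend of each library removed (0.0775), and in a fit of the female libraries alone (0.0910). Its relatives Dusp1 (+0.23, adjusted p = 0.208), Dusp6 and Dusp4, which act on the same family of kinases, did not pass, nor did Sik1, a kinase that restrains the CREB coactivators (+0.33, adjusted p = 0.0762; 1.995 FPKM in WT and 2.76 in KO). The remaining regulators, Ier2, Ier5, Btg2, Trib1, Gadd45b, Gadd45g, Tiparp and Arl4d, ranged from −0.14 to +0.20.

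Bdnf (ENSMUSG00000048482.14 at chromosome 2, 109674700 to 109727007, plus strand) was at 10.8, 12.4, 12.4, 12.6 and 11.9 FPKM in female WT and at 10.01, 8.97, 9.72, 9.99 and 10.5 in female KO. Every KO value lay below every WT value. Means were 12.0 ± 0.749 and 9.84 ± 0.557 FPKM (SD, n = 5 each), a difference of −0.26 (SE 0.053, adjusted p = 0.0149). It was −0.28 without the Ttr libraries (adjusted p = 0.0552) and −0.21 without the Prl libraries (adjusted p = 0.261), and the call was also lost in a fit of the female libraries alone (adjusted p = 0.0504). Ptgs2 (ENSMUSG00000032487.8 at chromosome 1, 150100031 to 150108227, plus strand) was at 7.499, 8.13, 8.76, 9.07 and 9.53 FPKM in female WT and at 6.62, 6.37, 6.47, 5.49 and 6.87 in female KO, again without overlap. Means were 8.60 ± 0.798 and 6.36 ± 0.527 FPKM, a difference of −0.38 (SE 0.063, adjusted p = 0.00557), the smallest p of any member. It was −0.34 without the Ttr libraries (adjusted p = 0.0502) and −0.30 without the Prl libraries (adjusted p = 0.144).

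Arc, which removes AMPA receptors from synapses, was at 20.98, 25.7, 22.5, 17.3 and 19.3 FPKM in female WT and at 24.2, 24.3, 20.2, 24.7 and 24.8 in female KO. The WT libraries covered the whole KO range, and the difference of +0.16 (SE 0.11) had an adjusted p of 0.457. Vgf, singled out after its values were seen, was at 36.3, 40.1, 17.01, 28.3 and 30.4 FPKM in female WT and at 16.8, 41.1, 16.98, 16.3 and 41.3 in female KO. Over all 20 libraries it sat at either 13.01 to 17.01 FPKM (8 libraries: in each sex 1 WT and 3 KO) or 28.3 to 41.3 (12 libraries), with nothing between. Its within-group SD of 0.59 was the highest of the 38, and how its reads were assigned is not known here. The remaining effectors, the synaptic pentraxin Nptx2, Plk2, the activin subunit Inhba and Scg2, differed by −0.06 to +0.04 in females.

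**Figure D3:**
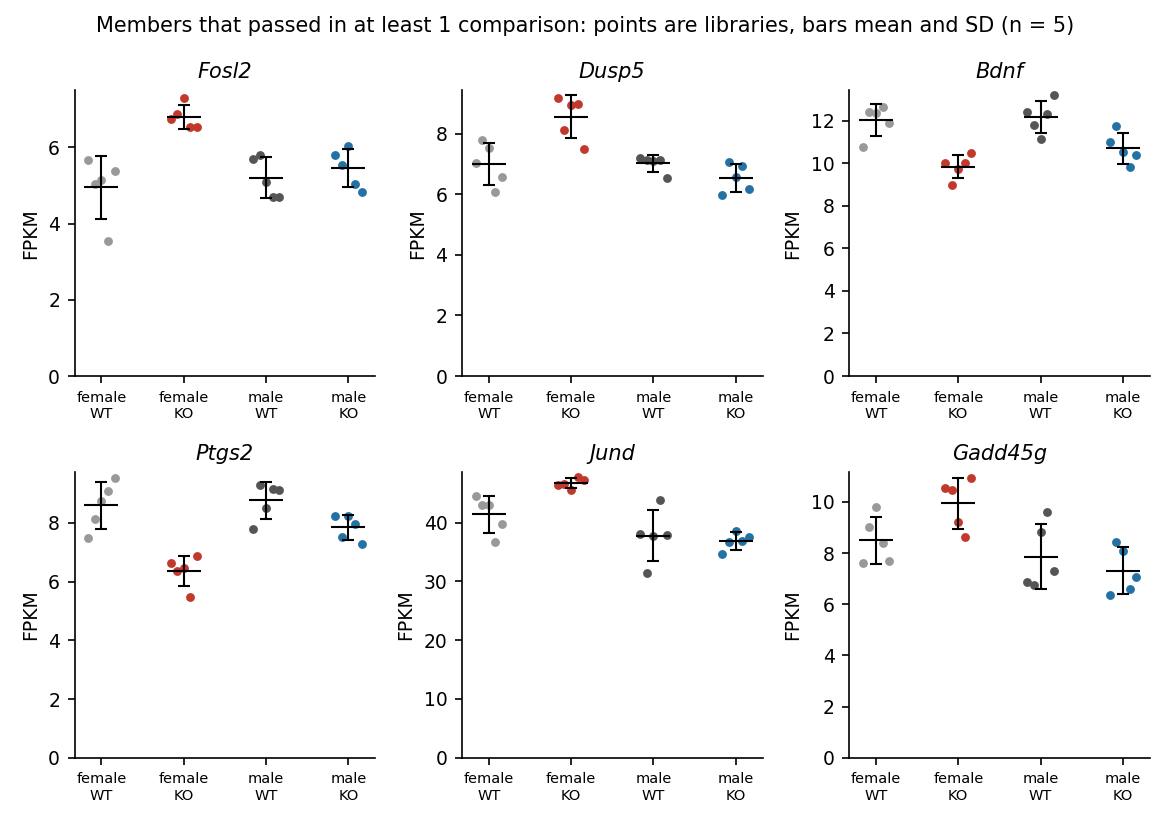
FPKM of the 6 members that passed the threshold in a comparison, by group; points are libraries, bars the mean and SD (n = 5). Fosl2 and Dusp5 are highest in female KO, and Bdnf and Ptgs2 are lowest there.

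In males, limma called 0 of 38 members between KO and WT, 6 had an unadjusted p under 0.05 (8.69% of all genes did), and 6 of all genes were called (0.0455%). The 3 members with the smallest p were later effectors, all with lower means in KO. Bdnf was at 12.4, 11.8, 11.1, 12.3 and 13.2 FPKM in male WT and at 11, 11.8, 10.5, 9.81 and 10.4 in male KO. The means of 12.2 ± 0.769 and 10.7 ± 0.727 FPKM (SD, n = 5 each) differed by −0.17 (SE 0.053, adjusted p = 0.313), with some overlap. Inhba was at 2.15, 2.06, 2.26, 2.39 and 1.98 FPKM in male WT and at 1.83, 2.11, 1.71, 1.78 and 1.61 in male KO (−0.18, SE 0.057, adjusted p = 0.337). Nptx2, which clusters AMPA receptors on interneurons, was at 7.83, 6.77, 7.58, 9.22 and 8.78 FPKM in male WT and at 6.68, 6.22, 6.72, 7.33 and 6.58 in male KO (−0.22, SE 0.088, adjusted p = 0.468). KO and WT libraries overlapped for all 3, and none of the 38 members had groups that did not overlap in males, against 2% of all genes.

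None of the 5 activity markers passed the threshold in males. Fos was at 2.71, 2.28, 2.04, 1.43 and 1.84 FPKM in male WT and at 2.56, 3.31, 3.05, 2.14 and 2.75 in male KO, the largest positive difference of the 38 (+0.30, SE 0.13, adjusted p = 0.527). Npas4 was at 0.834, 1.01, 1.62, 1.51 and 1.81 FPKM in male WT and at 1.14, 1.09, 1.58, 1.499 and 3.23 in male KO (+0.17, adjusted p = 0.846). Its sign rested on KO library 5, without which the difference was −0.005. Arc averaged 17.2 ± 2.97 FPKM in male WT and 18.8 ± 2.21 in male KO (+0.13, adjusted p = 0.810), Egr1 25.8 ± 3.04 and 24.1 ± 2.70 (−0.09, adjusted p = 0.879), and Nr4a1 11.8 ± 1.51 and 13.5 ± 1.64 (+0.18, adjusted p = 0.681; SD, n = 5 each).

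**Figure D4:**
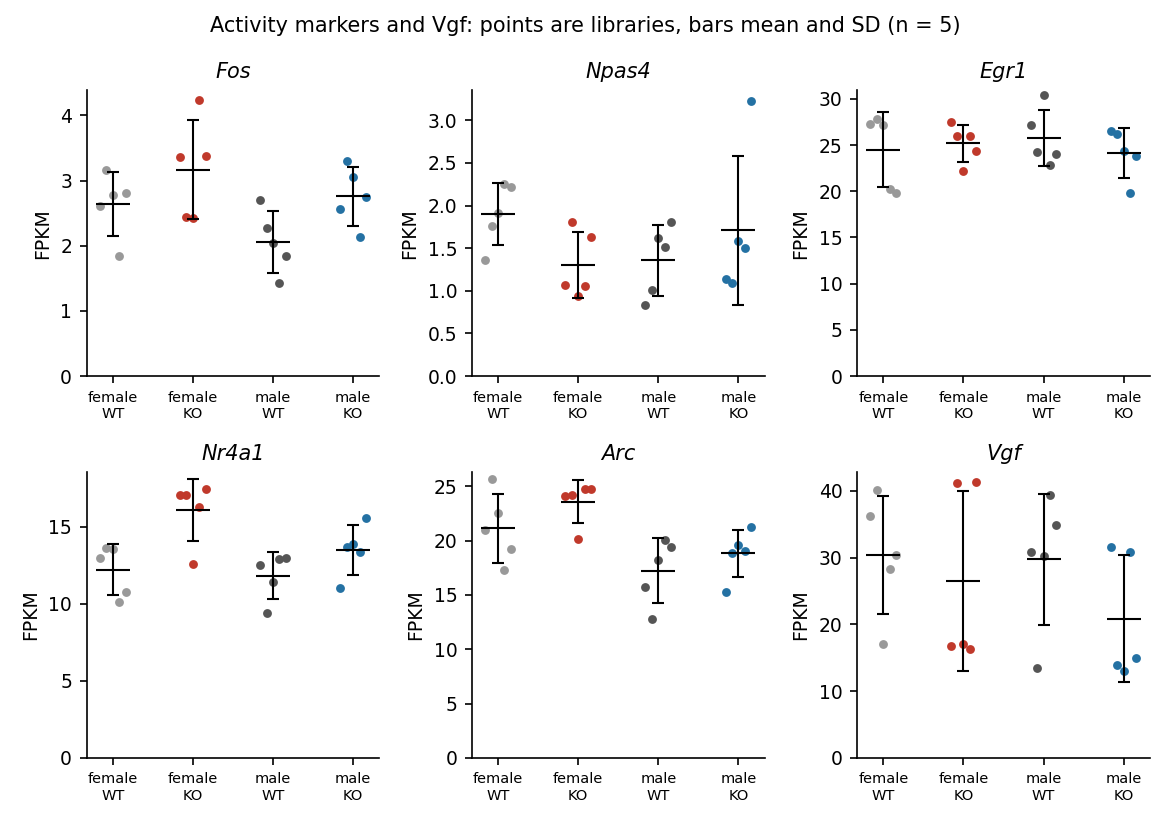
FPKM of Fos, Npas4, Egr1, Nr4a1, Arc and Vgf by group; points are libraries, bars the mean and SD (n = 5). KO and WT groups of a sex overlap for all 6 genes, a single male KO library holds the highest Npas4 value (3.23 FPKM), and Vgf values fall at 2 separate levels.

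Of the genes called in females, Bdnf and Ptgs2 had lower means in KO males too, while Fosl2 and Dusp5 stayed near their WT levels. Fosl2 was at 5.71, 5.81, 5.105, 4.71 and 4.69 FPKM in male WT and at 5.79, 5.55, 6.05, 5.05 and 4.84 in male KO (+0.06, SE 0.086, adjusted p = 0.909). Dusp5 was at 7.19, 7.14, 7.12, 7.12 and 6.54 FPKM in male WT and at 5.99, 7.05, 6.58, 6.94 and 6.18 in male KO (−0.09, SE 0.062, adjusted p = 0.743). Ptgs2 was at 7.78, 9.28, 8.504, 9.16 and 9.13 FPKM in male WT and at 8.24, 7.53, 8.23, 7.96 and 7.29 in male KO (−0.14, SE 0.063, adjusted p = 0.537). Whether the KO effect differed between sexes was tested directly, and limma called 0 of 38 members and 6 of all genes (0.0455%). An unadjusted p under 0.05 was found for 8 of the 38, a larger share than the 10% of all genes. The male effect minus the female effect was −0.35 for Dusp5 (95% CI −0.53 to −0.16, adjusted p = 0.252), −0.34 for Fosl2 (−0.60 to −0.09, adjusted p = 0.376) and −0.22 for Inhba (−0.39 to −0.05, adjusted p = 0.390). For Ptgs2 it was +0.24 (0.05 to 0.43, adjusted p = 0.390). The sexes are therefore not shown to differ in their KO effect on any member. Signs matched in the 2 sexes for 19 of the 38 members: 10 were above 0 in both and 9 below 0 in both.

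Averaged over the sexes, 3 of 38 members differed between KO and WT (7.89%), against 3.22% of all genes. Ptgs2 fell by 0.26 (SE 0.044, adjusted p = 0.00472) and Bdnf fell by 0.22 (SE 0.038, adjusted p = 0.0054), while Fosl2 rose by 0.23 (SE 0.061, adjusted p = 0.0455). Nr4a1 was just outside the threshold (+0.27, SE 0.075, adjusted p = 0.0508). The Fosl2 call was lost in 14 of the 20 fits that left out 1 library, and no member was called without the Prl libraries (adjusted p = 0.0536 for Ptgs2 and 0.0668 for Bdnf). Without the Ttr libraries Ptgs2 and Bdnf remained called.

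Between the sexes, WT libraries showed 0 of 38 members called by limma, against 0.129% of all genes. Of the 38, 5 had an unadjusted p under 0.05, and 10.3% of all genes did. Plk2 had the smallest p and was the only member whose groups did not overlap (2.63% of members, against 2.18% of all genes). It was at 50.9, 49.1, 46.7, 48.4 and 48.4 FPKM in female WT and at 57.4, 52.4, 55.5, 52.6 and 55.3 in male WT (+0.16, SE 0.037, adjusted p = 0.131). Btg2, an antiproliferative transcriptional cofactor, followed at −0.26 (adjusted p = 0.314), and Arc at −0.28 (adjusted p = 0.412), both with lower means in males.

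In KO libraries, 4 of 38 members differed between the sexes (10.5%), against 5.38% of all genes. Jund, Dusp5 and Gadd45g, a stress-response protein linked to DNA demethylation, were lower in males, and Ptgs2 was higher. Groups that did not overlap were found for 5 members (13.2%, against 8.02% of all genes): these 4 and Fosl2. Jund (ENSMUSG00000071076.6 at chromosome 8, 70698949 to 70700616, plus strand) was at 34.6, 36.8, 38.6, 36.8 and 37.6 FPKM in male KO, each below the lowest female KO value of 45.5. Means were 46.7 ± 0.867 and 36.9 ± 1.47 FPKM (SD, n = 5 each; −0.33, SE 0.063, adjusted p = 0.00964). In male WT it was at 38.01, 31.5, 37.7, 43.8 and 37.9. Jund is the most GC-rich of the 4 called members, at 67.1%, and with the GC trend removed its difference was −0.15 (adjusted p = 0.107). Gadd45g (ENSMUSG00000021453.2 at chromosome 13, 51846678 to 51848468, plus strand) was at 10.5, 10.4, 9.197, 8.62 and 10.9 FPKM in female KO and at 6.35, 8.45, 8.06, 6.59 and 7.05 in male KO, without overlap (−0.40, SE 0.096, adjusted p = 0.0265). It was at 7.63, 9.03, 9.802, 8.38 and 7.68 in female WT and at 6.86, 6.74, 8.82, 9.602 and 7.29 in male WT. Dusp5 differed by −0.34 (SE 0.062, adjusted p = 0.00793) and Ptgs2 by +0.27 (SE 0.063, adjusted p = 0.0258), from the library values given above.

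Ptgs2 was not called without female KO library 4 (adjusted p = 0.0514) or male KO library 1 (0.0712), and Gadd45g was lost without female KO library 2 or 5 or male KO library 1 or 4. With the GC trend removed only Dusp5 was called, as also without the Ttr libraries, and none was without the Prl libraries. Slopes on GC content were taken on each gene's deviation from its mean over all libraries, so they compare libraries with each other. They were highest in the 5 libraries of female KO, at 0.062 to 0.076 log2 units per 10% GC. Median GC was 54.6% for the early transcription factors, 55% for the early regulators, 47.4% for the later effectors and 49.7% for all tested genes. Bdnf (40.9%) and Ptgs2 (40%) are GC-poor, and Fosl2 (53.1%), Dusp5 (56.7%) and Gadd45g (59.9%) are not. With the trend removed, Fosl2, Bdnf and Ptgs2 remained called in KO females.

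Set against each other by role, early factors lay mostly above 0 in KO females and later effectors mostly below 0 in KO males. In females 13 of 17 early transcription factors were above 0 in KO, with a median difference of +0.14; of the early regulators 9 of 13 were (median +0.08), and of the later effectors 3 of 8 (median −0.06). Over all tested genes, 52% were above 0 with a median of +0.01. In males 8 of 17 early transcription factors were above 0 (median 0.00), 5 of 13 early regulators (median −0.01) and 1 of 8 later effectors (median −0.16), against 49.2% of all genes and a median of 0.00. Without the Ttr libraries the female median of the early factors was +0.03, and with the GC trend removed it was +0.09. That of the later effectors in females was −0.02 and −0.08. In males all 8 oligodendrocyte markers were below 0 in KO as well (0 called, median −0.18; summed level 629 to 781 FPKM in WT and 567 to 692 in KO), and their part in the later effectors' values was not tested.

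Class means were also taken for each library, centred on the mean of the 20 libraries. The early factors averaged −0.01 ± 0.11 in female WT and 0.10 ± 0.07 in female KO (SD, n = 5 each). In males they averaged −0.04 ± 0.05 in WT and −0.05 ± 0.04 in KO. Female WT library 4 was lowest of all at −0.19, and it is also the WT library with high Ttr. The later effectors averaged 0.06 ± 0.07 in WT females against −0.04 ± 0.09 in KO, and 0.06 ± 0.13 in WT males against −0.09 ± 0.07 in KO. Vgf, with its separate levels, is 1 of these 8 genes. It differed by −0.27 in females and by −0.52 in males, the lowest of the class in males. Its part in the class means was not tested. KO and WT libraries overlapped in both classes and both sexes.

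**Figure D5:**
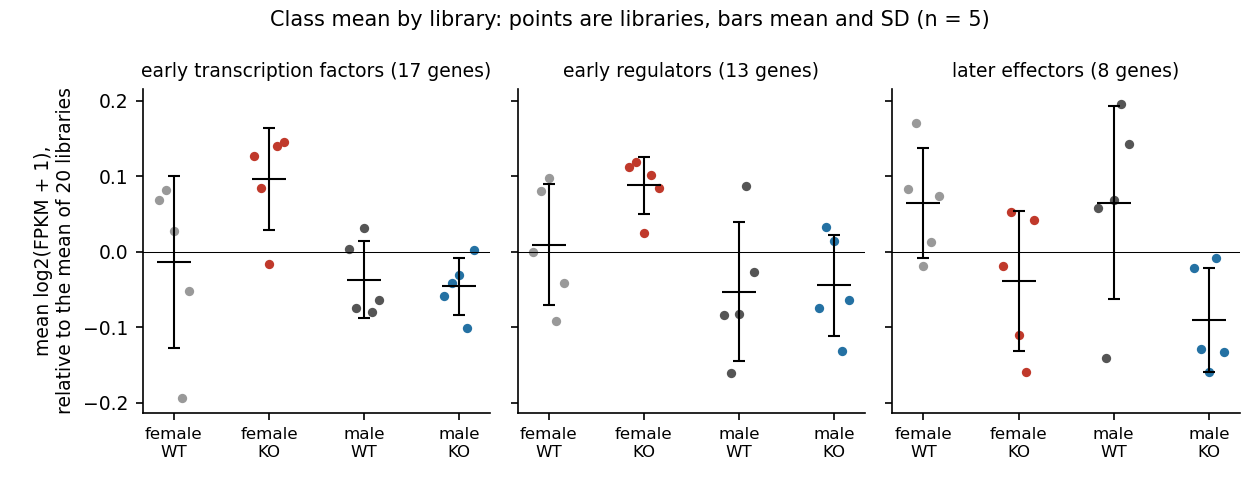
Mean log2(FPKM + 1) of each class per library, relative to the mean of the 20 libraries; points are libraries, bars the mean and SD (n = 5). The early transcription factors are highest in female KO (0.10 ± 0.07), the later effectors are lower in KO than in WT on average in both sexes, and the groups overlap. The later effectors include Vgf, whose values fall at separate levels.

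Beyond group differences, some members varied together from library to library. The following are Pearson correlations over the 20 libraries after each group's mean was subtracted, given as a description: the libraries share tissue, dissection and scaling. Nr4a1 and Arc were the closest pair of activity markers (r = 0.890), and Arc also followed the AP-1 subunits Junb (0.838) and Jund (0.818). All 4 are GC-rich (Nr4a1 57%, Arc 59%, Junb 62.6% and Jund 67.1%, against a median of 49.7% for all tested genes). The GC trend was not removed here, and libraries of a group differed in GC slope, in male WT from −0.095 to 0.010 log2 units per 10% GC. The part of GC content in these correlations was not tested. Fos followed Egr2 (0.707), Sik1 (0.678), Nr4a3 (0.548) and Egr1 (0.540), but not Arc (0.133) or Npas4 (−0.330). Correlations above 0.5 made up 12.5% of the 136 pairs of early transcription factors, 0 of the 28 pairs of later effectors, 8.39% of all 703 pairs of members and 3.15% of all pairs of tested genes. Outside the members, the genes most like Fos were Psmg3 (0.739), Zfp825 (0.732), Cyp51 (0.723), Pcgf3 (0.713) and 1810013L24Rik (0.707).

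Genes of the same programme outside the 38 were read against shares of all tested genes. In females 3.32% of all genes were called, 52% lay above 0 and 19.5% had an unadjusted p under 0.05; in males these shares were 0.0455%, 49.2% and 8.69%. Of 45 other activity-regulated genes tested in females, 3 rose and 1 fell. Homer1, whose short form is induced by activity and uncouples metabotropic glutamate receptors, rose from 8.64 ± 0.995 to 12.5 ± 1.25 FPKM (SD, n = 5 each; +0.49, adjusted p = 0.0393); gene totals do not separate its forms. The glucose transporter Slc2a3 rose from 17.3 ± 1.35 to 20.4 ± 0.863 FPKM (+0.23, adjusted p = 0.0186). Fbxo33, an F-box gene, rose from 2.97 ± 0.663 to 11.4 ± 0.688 FPKM (+1.66, adjusted p = 0.0186); in male KO its libraries ran from 1.89 to 13.3. Over the 20 libraries Fbxo33 sat at either 1.89 to 4.99 FPKM (13 libraries: all 10 of WT and 3 of male KO) or 10.7 to 13.3 (7 libraries: 5 of female KO and 2 of male KO), and how its reads were assigned is not known here. Rgs7, a regulator of G-protein signalling, fell by 0.12 (adjusted p = 0.0438). In males 0 of the 45 were called (5 had an unadjusted p under 0.05).

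Among 45 genes of the signalling upstream, 2 rose and 3 fell in KO females. Srf, the factor that binds CArG boxes, rose from 9.39 ± 0.869 to 10.9 ± 0.537 FPKM (SD, n = 5 each; +0.20, adjusted p = 0.0397), and the calmodulin gene Calm3 rose by 0.17 (adjusted p = 0.0395). The NMDA receptor subunits Grin2a and Grin2b fell by 0.23 and 0.20 (adjusted p = 0.0240 and 0.0376), and Camkk1, a kinase that activates CaM kinases, fell by 0.94 (adjusted p = 0.0378). Camkk1 too sat at separate levels: 8 libraries at 16.6 to 22.2 FPKM (5 of female KO and 1 of each other group) and 12 at 31.7 to 42.3, and how its reads were assigned is not known here. In males 0 of the 45 were called (4 had an unadjusted p under 0.05). Lists of stress responses were read beside them. Of 15 glucocorticoid-response genes 0 were called by limma in females, though 14 were above 0 with a median of +0.18 and 7 had an unadjusted p under 0.05; in males 11 were above 0 (median +0.07, 0 called, 2 with an unadjusted p under 0.05). Of 11 heat-shock genes 2 rose in females, the chaperones Hspb1 (+0.56, adjusted p = 0.0129) and Dnajb1 (+0.27, adjusted p = 0.0153), and 0 in males (0 also at an unadjusted p under 0.05). None of the 11 female calls in these 4 lists was kept without the Ttr libraries or without the Prl libraries, 4 were kept in a fit of the female libraries alone (Homer1, Fbxo33, Camkk1 and Grin2b), and 4 to 11 on leaving out 1 library. With the GC trend removed 6 were kept, and Rgs7, Srf, Calm3, Grin2a and Grin2b were lost; the difference of Srf was then +0.10 (adjusted p = 0.209). With the replicate number as a block 6 were kept, and Rgs7, Srf, Calm3, Grin2b and Camkk1 were lost. Averaged over the sexes, 5 genes of these lists were called (3.22% of all genes were). Among the 5, Fbxo33 (+1.05, adjusted p = 0.0295), Slc2a3 (+0.17, 0.01375) and the glucocorticoid-response gene Mt1 (+0.15, 0.0454) rose, and Grin2a (−0.17, 0.01855) fell. Of the 15 glucocorticoid-response genes 13 were above 0 and 8 had an unadjusted p under 0.05 (18% of all genes did). Slc2a3 alone was kept without the Ttr libraries, and none without the Prl libraries. The part of these lists in the members' differences was not tested.

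Between the sexes in KO, 12 genes of these 4 lists differed, and 5.38% of all genes did. The heat-shock list had 4 of 11 lower in males: Hspb1 by a difference of −0.84 (adjusted p = 0.000371), Dnajb1 of −0.26 (0.0180), Hspa1b of −0.36 (0.0309) and Hspa1a of −0.34 (0.0346). The last pair encode near-identical forms of the inducible chaperone HSP70, so the split of reads between them is uncertain. Of the 45 upstream genes 4 were lower in males, among them Srf (−0.30, adjusted p = 0.00567), Calm3 (−0.21, 0.0166) and the histone deacetylase gene Hdac5 (−0.18, 0.0309). The kinase genes Camk4 (+0.24, 0.0309) and Braf (+0.17, 0.0230) were higher. Among the other activity genes Rgs7 was higher (+0.14, 0.0220) and the repressor gene Nfil3 lower (−0.38, 0.0233), and 0 of 15 glucocorticoid-response genes were called (1 had an unadjusted p under 0.05, against 23.3% of all genes). Hspb1 kept its call without the Prl libraries (−0.72, adjusted p = 0.0398) and was the only one of the 12 to do so. Calls kept numbered 3 with the GC trend removed (Hspb1 and Dnajb1 among them), 3 without the Ttr libraries (Hspb1, Dnajb1 and Srf), 7 with the replicate block and 10 in a fit of the KO libraries alone. Leaving out 1 library kept 4 to 12 of them, with 4 kept without male KO library 1 and 6 without female KO library 2, 3 or 5. Srf, the factor of the CArG boxes, was at −0.15 with the GC trend removed (adjusted p = 0.102) and at −0.29 without the Prl libraries (adjusted p = 0.127).

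Markers of cell types moved with the same comparison. Of all tested genes 3.32% were called in females and 52% lay above 0, and in males 0.0455% and 49.2%. In female KO all 10 dentate granule markers were below 0 (2 fell, median −0.24), and their summed level was 98 to 130 FPKM against 127 to 148 in female WT; in males it was 121 to 129 in KO and 124 to 134 in WT. All 8 markers of CA3 and CA2 neurons were also below 0 in females (0 called, median −0.09). In females 7 of 8 mural markers were above 0 (0 called, median +0.22; summed level 67.2 to 75.6 FPKM in WT and 67.3 to 111 in KO), as were all 5 blood genes (0 called, median +0.47; 311 to 562 FPKM in WT and 432 to 673 in KO). Choroid plexus markers summed to 35.8 to 1025 FPKM in female WT and 64.3 to 1669 in female KO. Meningeal fibroblast markers were above 0 for 6 of 7 in females (1 rose, median +0.27) and for 7 of 7 in males (0 called, median +0.21). All 8 oligodendrocyte markers were below 0 in females (1 fell, median −0.14), as in males. Of 7 CA1 markers 1 rose in females (4 above 0, median +0.04) and 0 were called in males (3 above 0, median −0.14). The gene Dcn is in both the CA1 and the meningeal fibroblast list, so the counts of these 2 lists are not separate, here or between the sexes. Astrocyte, microglial and endothelial lists had 0 of 8 called in either sex; in females 7, 3 and 6 of the 8 were above 0. In bulk tissue fewer cells of a type and less RNA per cell cannot be told apart. The part of these markers in the differences of Bdnf, Ptgs2, Fosl2 and Dusp5 was not tested.

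Markers also moved between the sexes in KO, where 5.38% of all tested genes were called and 46.9% lay above 0. Dentate granule markers were higher in males for 4 of 10 (7 above 0, median +0.19; summed level 98 to 130 FPKM in female KO and 121 to 129 in male KO). Meningeal fibroblast markers were all below 0, and 2 of 7 were called lower (median −0.30; 22.3 to 43.9 FPKM in female KO and 19.5 to 29.2 in male KO). Of 8 endothelial markers 1 was lower (2 above 0; 47.1 to 57.9 and 46.6 to 49.6 FPKM), and of 7 CA1 markers 1 was lower (3 above 0). Mural markers had 1 of 8 above 0 and blood genes 0 of 5, with 0 called in either list (medians −0.26 and −0.36). The part of these markers in the differences of Jund, Dusp5, Gadd45g and Ptgs2 between KO males and KO females was not tested. Several members overlap a gene on the opposite strand in GENCODE M21, among them Jun, Junb, Jund, Dusp5 and Bdnf, and the strand setting of the authors' quantification is not given in the sources used here, so reads of such partners may be included.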

How the data were processed

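Hippocampal RNA was sequenced in 20 mouse libraries, for which the authors deposited FPKM, per the file headers. FastQC, HISAT2 and StringTie with mm10 are named in the submitters' processing notes; for versions, annotation and strand the setting is not given in the sources used. FPKM show no whole-read steps, so depth is unknown, and only the number of libraries (5 per group) limits the precision that can be stated. Groups came from the sample titles.

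Genes with at least 0.5 FPKM in at least 5 libraries were fitted as log2(FPKM + 1) with limma 3.58.1 (limma-trend, R 4.3.3) over all 20 libraries, 1 mean per group, in 6 comparisons, two-sided, with Benjamini-Hochberg adjustment over all 13174 genes. This scale understates the change of low genes. The fit was tested on simulated data. GC content and overlaps came from GENCODE M21 (13228 genes matched), promoters from RefSeq (GRCm38.p6).

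Members and lists were chosen with earlier results of these data known. Full values are given for members past the threshold, for Fos, Arc, Npas4, Egr1 and Nr4a1, and for the 3 smallest p where none passed. From other lists, called genes were named, at most 6 per list and comparison. Alternatives covered scaling, GC trend, pseudocount, filter, variance model, block and left-out libraries. Leaving out the Ttr libraries (above 500 FPKM) or the Prl libraries (above 4 FPKM) was chosen after seeing the data. The values of 1 gene of the upstream signalling list are not reported here.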

Additional observations from a re-analysis of the deposited data

Results flagged for a closer look

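In 9 of the 152 groups of 5 libraries looked at, 1 library lay far from the others of its group, where chance gives about 1 in 20. Egr4 was at 6.12 FPKM in female WT library 1 (others 4.53 to 4.83). Npas4 was at 3.23 in male KO library 5 (others 1.09 to 1.58). Nr4a1 and Arc were both low in female KO library 3, Nr4a1 at 12.6 (others 16.3 to 17.5) and Arc at 20.2 (others 24.2 to 24.8). Klf4 was at 2.59 in female KO library 2 (others 2.02 to 2.1). Dusp5 was at 6.54 in male WT library 5 (others 7.12 to 7.19). Trib1, a pseudokinase, was at 1.52 in female WT library 4 (others 1.68 to 1.74) and at 1.96 in male WT library 4 (others 1.64 to 1.71). Inhba was at 2.1 in female WT library 2 (others 1.81 to 1.86).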

How the results depend on the processing

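The number of members called in KO females was 4, and 1 when only the female libraries were fitted, 0 without the 4 Ttr libraries and 0 without the 3 Prl libraries; leaving out 1 library gave 3 to 5. All-gene calls were 438, and 91, 76 and 8 under these 3 settings. The last 2 settings also leave fewer female KO libraries. The median of the early transcription factors in females was 0.1375, and 0.0251 without the Ttr libraries. For the effect averaged over the sexes the 3 members became 0 without the Prl libraries (2 to 3 on leaving out 1 library). Between sexes in KO the 4 members became 1 with the GC trend removed, 1 without the Ttr libraries and 0 without the Prl libraries, and 2 to 6 on leaving out 1 library (2 without male KO replicate 1). In males, between sexes in WT and for the difference of effects, 0 members were called under every alternative run.

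Of 1727 alternative values for 58 single-gene results, 1446 kept direction and side of the threshold, 272 lost their call, 3 gained one and 6 reversed. The reversed were small and not called: Fos in females without the Ttr libraries (−0.0447), Egr1 in females with the GC trend removed (−0.0003), without the Ttr libraries (−0.0117) and on leaving out 1 library (−0.0182 to 0.0986), and Npas4 in males on leaving out 1 library (−0.005 to 0.249). Causes were not tested.

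Equal replicate numbers showed no sign of pairing: over 30 same-numbered pairs the correlation of deviations from the group mean was −0.105 to 0.065. Over 120 pairs with other numbers it was −0.197 to 0.204. The labels do not say whether numbers pair libraries, and a small shared effect could go unseen. With the replicate number as a block, 4 members were called in females (320 of all genes), 3 for the mean effect and 5 between sexes in KO. Depth is unknown, so no detection limit can be given.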
